A study of Mus musculus with 16 samples.

Results

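The comparison described here is GM-noTC-LPS against M-noTC-LPS, the growth factor contrast of bone marrow derived macrophages (BMDMs) grown on noTC dishes and challenged with LPS. Both groups came from bone marrow of C57BL/6J mice aged 8 weeks. The cells were matured for 7 days with GM-CSF (GM) or M-CSF (M) on noTC dishes, whose polystyrene surface is not treated for tissue culture and holds cells less firmly than the treated TC dishes. LPS, the bacterial endotoxin, was then given for 3 h. The 4 libraries, 2 for each group, were taken by their labels out of 16 libraries in the series, and the 12 others hold the same cells on TC dishes or without LPS. The labels number the replicates, and the study calls them biological replicates, but neither says whether they came from different mice. The p-values rest on a spread estimated over all 16 libraries, which may be smaller than the spread between mice. By the study's methods the GM cultures were seeded more densely and the 2 growth factors were used at different concentrations, so growth factor and density cannot be told apart. In bulk RNA, fewer cells of a kind and less RNA per cell cannot be told apart either.

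M-CSF signals through the receptor kinase CSF1R and keeps tissue macrophages alive and dividing. GM-CSF signals through a receptor with a shared beta chain and STAT5, supports alveolar macrophages, and in culture gives cells with many features of inflammatory monocytes and dendritic cells. LPS binds TLR4 with its partners CD14 and MD-2, and the receptor sends a signal through MyD88 to NF-kB for cytokines such as IL-12 and a later one through TRIF to IRF3, interferon beta and the interferon stimulated genes.

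Promoter sequences are shown for genes of 2 lists whose DEGs all lay on 1 side, interferon stimulated genes and MHC class II genes. The genes shown hold the letters searched for, and 1 of them, Isg15, was not itself a DEG. Each is the 250 bases before the start of the gene in RefSeq, build GRCm38.p6, printed 5′ to 3′ on the strand of the gene. In the first pair, capitals mark the interferon response element letters, GAAA followed by any 2 bases and GAAA, on either strand, and overlapping matches run together. Isg15 lies on the minus strand at chr4:156200819-156201068 and holds 3 matches, and Cxcl10 lies on the minus strand at chr5:92348890-92349139 and holds 1.
Isg15: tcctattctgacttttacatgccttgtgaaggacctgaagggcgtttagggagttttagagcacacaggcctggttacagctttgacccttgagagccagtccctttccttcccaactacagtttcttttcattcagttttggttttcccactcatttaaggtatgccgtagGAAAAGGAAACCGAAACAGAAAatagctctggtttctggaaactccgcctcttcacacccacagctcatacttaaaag
Cxcl10: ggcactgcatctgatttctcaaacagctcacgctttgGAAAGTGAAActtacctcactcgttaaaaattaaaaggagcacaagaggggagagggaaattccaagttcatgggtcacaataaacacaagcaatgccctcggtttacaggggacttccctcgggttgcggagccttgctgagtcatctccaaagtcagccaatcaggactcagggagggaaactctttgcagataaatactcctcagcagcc
In the second pair, capitals mark the CCAAT box in either orientation, searched as ATTGG, a part of the conserved upstream region through which CIITA switches on MHC class II genes. H2-Aa lies on the minus strand at chr17:34287824-34288073 with 1 match, and H2-Eb1 on the plus strand at chr17:34305617-34305866 with 2 matches.
H2-Aa: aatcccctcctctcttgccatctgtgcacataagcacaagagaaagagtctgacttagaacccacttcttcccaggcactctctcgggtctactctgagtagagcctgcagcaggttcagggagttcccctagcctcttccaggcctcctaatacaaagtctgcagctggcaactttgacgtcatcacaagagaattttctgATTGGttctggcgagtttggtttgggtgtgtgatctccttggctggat
H2-Eb1: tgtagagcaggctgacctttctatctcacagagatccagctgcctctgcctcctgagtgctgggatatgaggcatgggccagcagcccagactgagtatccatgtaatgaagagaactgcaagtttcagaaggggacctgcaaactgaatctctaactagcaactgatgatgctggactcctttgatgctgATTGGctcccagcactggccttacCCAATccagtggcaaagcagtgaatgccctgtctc
The interferon letters were in 2.98% of all 32851 promoter windows. Counted per gene, with a match in any of its windows, they were in 3.51% of 9905 tested genes and 23 of 40 interferon stimulated genes. They were in 7 of the 15 such genes called higher in M-noTC-LPS and in 16 of the 25 that were not called. The windows of Cxcl9 and Irf7, both higher in M-noTC-LPS, held no match. The ATTGG letters were in 33.8% of all windows. Counted per gene, they were in 40.6% of tested genes with a window and in 8 of 9 genes of the MHC class II list. A match is a description of these letters in these windows, and nothing was read from it about the binding of a factor.

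The 4 libraries held between 23149399 and 27820352 counts, within the range of 17527802 to 31458363 over all 16, and 3 counts in the 4 libraries equalled between 0.137 and 0.154 CPM. CPM values are counts per 1000000 of the library, scaled with edgeR's TMM factors unless stated. Replicates of a group correlated across genes at r = 0.993 in GM-noTC-LPS and 0.992 in M-noTC-LPS, and libraries of different groups at 0.916 to 0.918. Mitochondrially encoded genes took 6.30% and 6.06% of counts in GM-noTC-LPS and 3.5% and 3.6% in M-noTC-LPS. The 10 most abundant genes took 15.8% and 15.9% in GM-noTC-LPS and 10.2% and 10.3% in M-noTC-LPS. The part of these differences in the results was not tested. Among genes with at least 100 CPM on average in the other 15 libraries, none fell below 2.40% of that average in either GM-noTC-LPS library, where the lowest was Stab1, nor below 0.606% and 0.433% in the 2 M-noTC-LPS libraries, where the lowest was Rbp4. Whether reads of other libraries make up part of such low values was not tested. Subtracting those shares changed fold changes near them. Stab1 set the share in both GM-noTC-LPS libraries, so the subtraction removed its counts there by construction. Its move from -5.24 to -16.62 on the log2 scale therefore says nothing about the size of its fold change. The log2 fold change of Chil3 went from 7.58 to 9.23, and the size of folds near these shares is uncertain.

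All 12 macrophage identity genes passed the expression filter. The lysozyme gene Lyz2 stood at 41044 and 41576 CPM in GM-noTC-LPS and 15299 and 16606 CPM in M-noTC-LPS, and the pan-macrophage glycoprotein Cd68 was also high in all 4 libraries, at 872 and 944 against 1293 and 1219.6 CPM. Adgre1, which encodes F4/80, measured 370.0 and 367 CPM in GM-noTC-LPS and 1223 and 1248 CPM in M-noTC-LPS, which is -1.75 ± 0.05 on the log2 scale (SE, adjusted p = 2.8e-18). Itgam, which encodes CD11b, went the other way, with 2521 and 2621 against 1144 and 1154 CPM and a log2 fold change of 1.16 ± 0.05 (adjusted p = 3.3e-15). Both groups carried the labelled cell type's markers, at different levels.

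Of 12514 tested genes, 1797 (14.4%) were upregulated DEGs in GM-noTC-LPS comparing with M-noTC-LPS and 1266 (10.1%) were downregulated, that is, higher in M-noTC-LPS. A DEG here had a Benjamini-Hochberg adjusted p below 0.05 in edgeR's quasi-likelihood test and a fold change above 2. The 3063 DEGs made up 24.5% of tested genes, and the fold change had a median of 0.019 on the log2 scale over all tested genes. The 2 groups did not overlap for 10245 genes, or 81.9%, so that absence of overlap alone said little. With 2 libraries a group, 0.333 is the smallest two-sided p that exact permutation allows for a single gene. Among the DEGs, 125 of those higher in GM-noTC-LPS had no count in M-noTC-LPS, and 28 of those higher in M-noTC-LPS had none in GM-noTC-LPS.

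**Figure D1:**
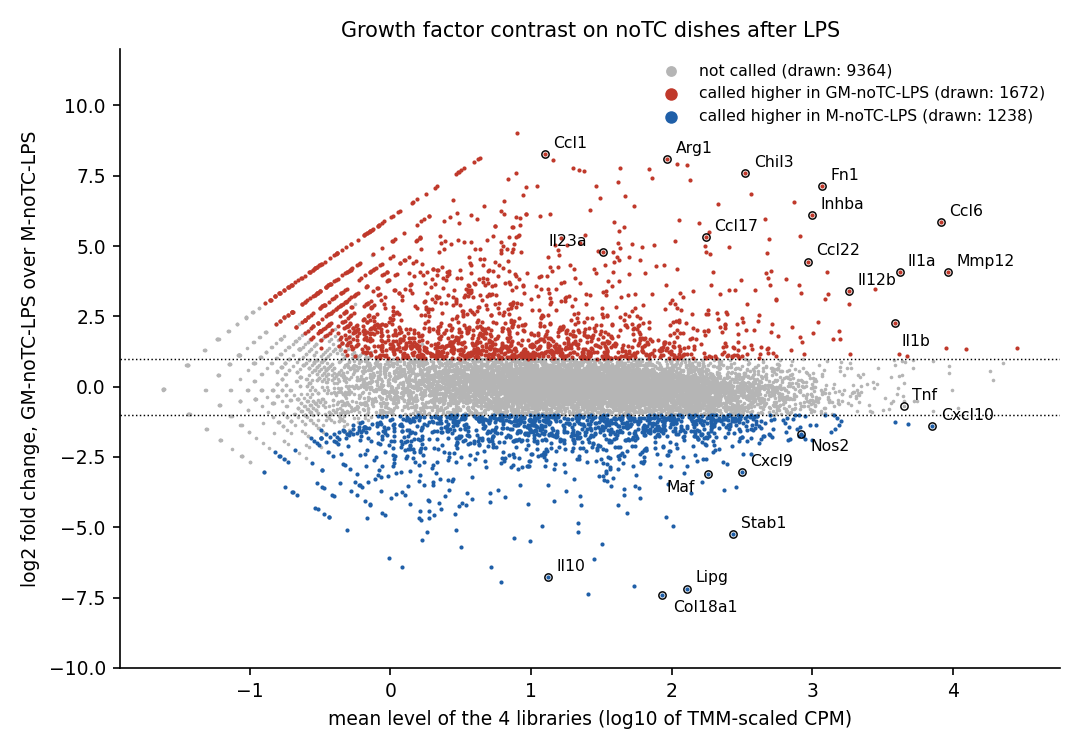
Log2 fold change of each gene, GM-noTC-LPS over M-noTC-LPS (vertical), against the mean level of the 4 libraries as log10 of TMM-scaled CPM (horizontal). Each point is 1 gene, red and blue points are DEGs in either direction, dotted lines mark a 2-fold change, circled genes are named in the text, and the 240 tested genes with no count in 1 of the groups are not drawn. The reader should see DEGs over a wide range of levels, with Il10 far below Ccl6 and Mmp12, which lie at the high end.

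The plot of fold change against level shows that large differences were not limited to weakly expressed genes. Ccl6, a CC chemokine of myeloid cells, measured 16874 and 15563 CPM in GM-noTC-LPS and 293 and 274 CPM in M-noTC-LPS, and the macrophage elastase gene Mmp12 17092 and 17949 against 1098 and 1002 CPM. On the log2 scale the differences were 5.84 ± 0.07 (adjusted p = 7.6e-24) and 4.06 ± 0.06 (adjusted p = 2.2e-22). Neither gene overlapped between the groups.

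Among DEGs with 20 CPM or more in the higher group, the 12 with the largest fold changes toward GM-noTC-LPS were Ccl1, Arg1, Wfdc21, Rbp4, Plet1, Ly6c2, Ear6, Ccn3, Rnase2a, Ereg, Chil3 and Car4, the last with 7.42 ± 0.13 on the log2 scale. They span secreted mediators, enzymes and lung or monocyte genes. Ccl1, a chemokine for CCR8-bearing cells, had 642 and 427 counts in GM-noTC-LPS and 2 and 1 counts in M-noTC-LPS, a ratio of 327 with a 95% counting interval of 112 to 1589.6. Chil3, which encodes the lectin Ym1, measured 715 and 616 against 3.65 and 3.29 CPM. Rbp4, a retinol carrier, measured 193 and 239 against 1.03 and 0.748 CPM, and Car4, a carbonic anhydrase, 145 and 142 against 0.821 and 0.848 CPM. Ereg, which encodes the EGF receptor ligand epiregulin, measured 48.1 and 47.5 against 0.103 and 0.349 CPM. Each of these genes was over 100 times as high in GM-noTC-LPS. Absence of overlap between the groups was part of the rule that chose them.

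The 12 genes with the largest fold changes toward M-noTC-LPS were Col18a1, Folr2, Lipg, Hmga2, Il10, Pcp4l1, Nox1, Stab1, Col4a5, Cadm1, Col4a1 and Cx3cr1. Folr2, the folate receptor of resident tissue macrophages, measured 0.284 and 0.319 CPM in GM-noTC-LPS and 46.98 and 54.1 CPM in M-noTC-LPS, which is -7.36 ± 0.22 on the log2 scale (adjusted p = 1.0e-17). The scavenger receptor gene Stab1 fell from 527 and 533 CPM in M-noTC-LPS to 13.98 and 14.1 CPM in GM-noTC-LPS, a log2 fold change of -5.24 ± 0.07. Lipg, an endothelial-type lipase, measured 1.85 and 1.69 against 263 and 250.4 CPM, and the NADPH oxidase gene Nox1 0.995 and 1.55 against 60.3 and 64.8 CPM. Col18a1 and Col4a1, both basement membrane collagens, measured 0.995 and 1.004 against 169.6 and 172 CPM and 0.474 and 1.004 against 23.9 and 22.3 CPM. Cx3cr1, the fractalkine receptor, measured 1.18 and 1.69 CPM in GM-noTC-LPS and 39.3 and 44.2 CPM in M-noTC-LPS.

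**Figure D2:**
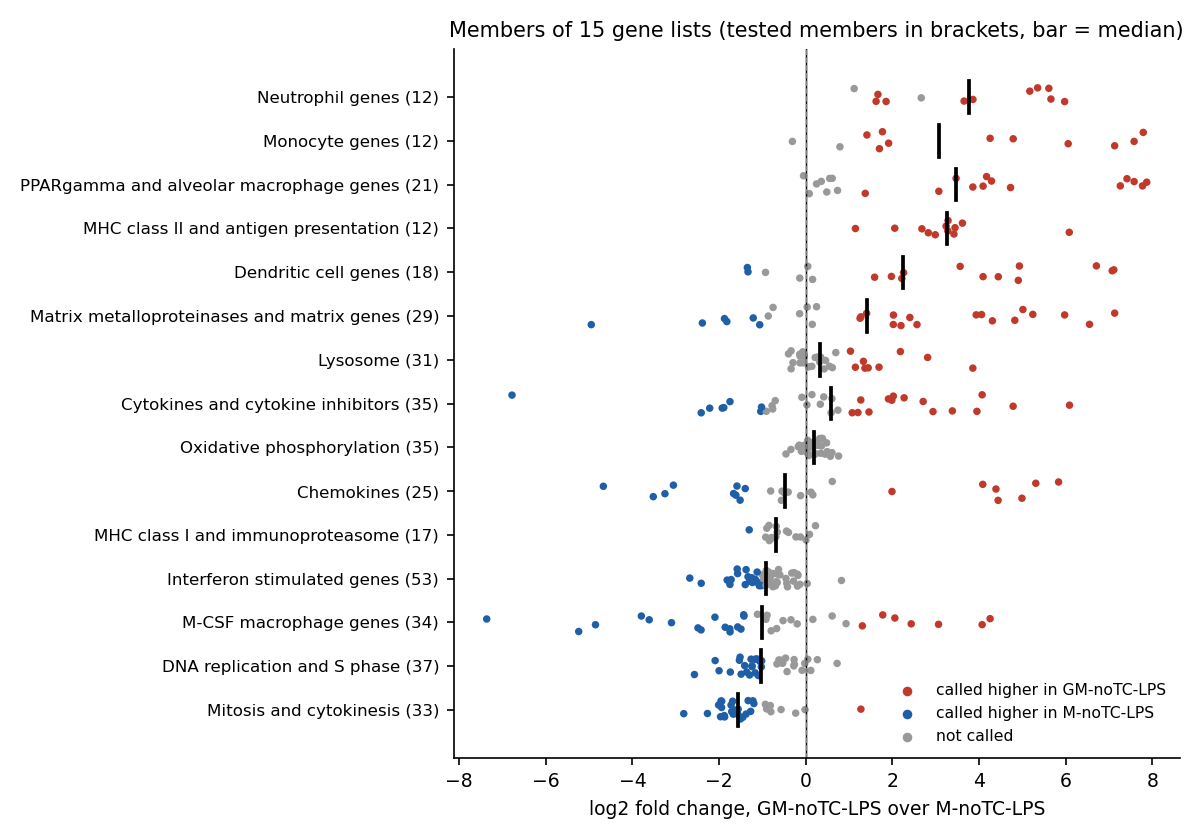
Log2 fold change, GM-noTC-LPS over M-noTC-LPS (horizontal), of every tested member of 15 gene lists (rows, with the number of tested members in brackets). Each point is 1 gene, red and blue points are DEGs and black bars are list medians. The dashed line is the median of the tested genes that had counts in both groups. The 1 member with no count in M-noTC-LPS (Ear1) is drawn at its lower bound. Medians of MHC class II, monocyte and neutrophil genes lie to the right of 0 and those of interferon, replication and mitosis genes to the left. Cytokines and matrix genes lie on both sides.

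The plot of gene lists gives the overall pattern by function, which is described list by list below, and each count can be read against the 14.4% and 10.1% of all tested genes that were DEGs in the 2 directions.

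Cytokine genes split by kind. Of 35 tested cytokine and cytokine inhibitor genes, 15 were upregulated and 8 downregulated in GM-noTC-LPS comparing with M-noTC-LPS, with a median log2 fold change of 0.59. The IL-12 and IL-23 subunits were all higher with GM-CSF. Il12b, the p40 subunit that IL-12 and IL-23 share, measured 3422 and 3245 CPM in GM-noTC-LPS and 297 and 340.3 CPM in M-noTC-LPS, which is 3.39 ± 0.09 on the log2 scale (SE, adjusted p = 2.4e-18). Il23a, the p19 subunit of IL-23, measured 65.5 and 59.4 against 2.57 and 1.95 CPM, or 4.79 ± 0.14 on the log2 scale (adjusted p = 5.9e-17). Il12a, the p35 subunit of IL-12, was low in both groups, at 13.9 and 13.8 against 7.29 and 5.89 CPM, with a log2 fold change of 1.08 ± 0.15. In contrast, Ebi3 and Il27, the 2 subunits of IL-27, were higher in M-noTC-LPS, Ebi3 at 66.1 and 69.4 against 224 and 231 CPM and Il27 at 224 and 230.1 against 440.4 and 491 CPM.

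Members of the IL-1 family differed in both directions. Il1a measured 7931 and 7859.8 CPM in GM-noTC-LPS and 465 and 473 CPM in M-noTC-LPS, which is 4.07 ± 0.08 on the log2 scale (adjusted p = 1.4e-20). Il1b measured 6399 and 6422 against 1275 and 1378 CPM, with 2.27 ± 0.06 (adjusted p = 2.3e-18). The receptor antagonist gene Il1rn moved with them, at 2443 and 2527 against 624 and 627 CPM, whereas Il18 and its inhibitor Il18bp were higher in M-noTC-LPS, at 10.3 and 6.62 against 30.2 and 34.1 CPM and 20.1 and 20.2 against 73.2 and 75.99 CPM. The groups did not overlap for any of these genes.

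Other cytokines that separated the groups included Inhba, the activin A subunit, at 1927 and 2005 CPM in GM-noTC-LPS and 26.95 and 30.7 CPM in M-noTC-LPS (6.09 ± 0.10 on the log2 scale). Tnfsf15, which encodes TL1A, measured 3224 and 3208 against 416 and 422 CPM, and the gp130 cytokine Lif 19.3 and 20.5 against 2.82 and 3.24 CPM. Il10, the anti-inflammatory cytokine of which M-CSF macrophages are a known source, measured 0.237 and 0.228 CPM in GM-noTC-LPS and 23.5 and 28.6 CPM in M-noTC-LPS, which is -6.78 ± 0.27 on the log2 scale (adjusted p = 3.3e-15). The IL-10 counts in GM-noTC-LPS were 5 in each library, so the size of that fold change rests on few reads. Il15 and Tnfsf10, which encodes TRAIL, were 4.64 and 5.32 times as high in M-noTC-LPS as in GM-noTC-LPS.

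Tnf, Il6 and Ifnb1, all fixed by name, differed by less than 2-fold. Tnf measured 3331 and 3482 CPM in GM-noTC-LPS and 5373 and 5706 CPM in M-noTC-LPS, which is -0.70 ± 0.06 on the log2 scale (adjusted p = 1.4e-09). Il6 measured 1957 and 1877 against 1326 and 1545 CPM, with 0.42 ± 0.08 (adjusted p = 1.3e-04). Ifnb1, interferon beta, measured 9.33 and 8.85 against 14.4 and 15.8 CPM, with -0.73 ± 0.17 (adjusted p = 8.7e-04). All 3 passed the adjusted test and none overlapped between the groups, Il6 being the higher in GM-noTC-LPS and Tnf and Ifnb1 in M-noTC-LPS.

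**Figure D3:**
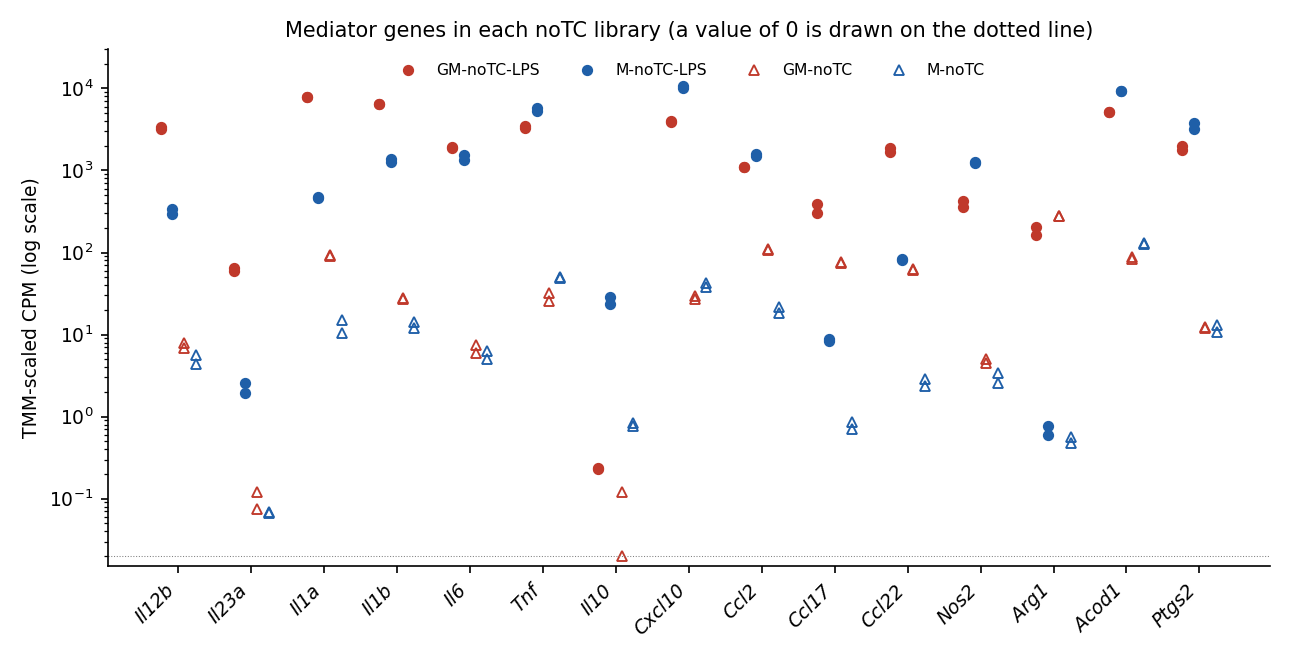
TMM-scaled CPM (vertical, log scale) of 15 mediator genes (horizontal) in each of the 8 noTC libraries. Filled circles are libraries after LPS, open triangles libraries at steady state, red is GM and blue is M, with 2 points per group and gene that often coincide. Il12b, Il23a, Il1a and Il1b reached higher levels in GM-noTC-LPS, Tnf, Cxcl10 and Nos2 in M-noTC-LPS, and Il6 differed by less than 2-fold.

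The plot of mediator genes sets the LPS libraries beside the steady state libraries of the same dish, where Il12b stood at 6.77 and 7.95 CPM in GM-noTC and 5.59 and 4.39 CPM in M-noTC, and Tnf at 25.8 and 31.97 against 50.7 and 49.1 CPM.

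Chemokine genes also fell into opposite groups. Of 25 tested chemokines, 7 were higher in GM-noTC-LPS and 9 in M-noTC-LPS. The CCR4 ligand genes Ccl17 and Ccl22, which attract Th2 and regulatory T cells, measured 387 and 302 against 8.42 and 8.88 CPM and 1885 and 1689.9 against 81.9 and 82.5 CPM. On the log2 scale Ccl17 differed by 5.31 ± 0.14 (adjusted p = 6.7e-19) and Ccl22 by 4.44 ± 0.08 (adjusted p = 1.3e-21). The neutrophil attractant Cxcl3 was 17.02 times as high with GM-CSF, at 2455 and 2331 against 125 and 156 CPM. On the other side stood the interferon-induced CXCR3 ligands. Cxcl9 measured 70.8 and 64.9 CPM in GM-noTC-LPS and 570.2 and 556 CPM in M-noTC-LPS, Cxcl10 3972 and 3922 against 10147 and 10606 CPM, and Cxcl11 7.06 and 7.57 against 71.2 and 68.01 CPM. Their log2 fold changes were -3.05, -1.39 and -3.25, with SEs of 0.09, 0.06 and 0.11.

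The CCR2 ligand genes, which recruit monocytes, were lower in GM-noTC-LPS to different degrees. Ccl12 measured 5.73 and 6.205 against 66.4 and 70.5 CPM, Ccl7 292 and 354 against 987 and 985 CPM, and Ccl2 1094 and 1103 against 1497 and 1571 CPM, the last a difference of -0.48 ± 0.07 on the log2 scale that passed the test (adjusted p = 6.0e-06) without reaching 2-fold. Ccl5, or RANTES, behaved like Ccl2, at 1176 and 1064 against 1534 and 1734 CPM (-0.54 ± 0.06, adjusted p = 2.3e-08). Among 13 tested chemokine receptors, 4 were higher in GM-noTC-LPS and 3 in M-noTC-LPS. Ccr7, which guides dendritic cells to lymph nodes, measured 61.1 and 62.00 against 0.462 and 0.699 CPM, and Ccr1 118 and 120.4 against 4.26 and 3.29 CPM.

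No interferon stimulated gene was a DEG higher in GM-noTC-LPS, and 20 of 53 were DEGs higher in M-noTC-LPS. By the adjusted p alone 1 lay toward GM-noTC-LPS and 51 toward M-noTC-LPS, against 4190 and 4076 of all 12514 tested genes. The list median was -0.92 on the log2 scale. Among the largest differences were the GTPase gene Iigp1, at 62.9 and 63.6 CPM in GM-noTC-LPS and 403 and 404 CPM in M-noTC-LPS (-2.67 ± 0.09 on the log2 scale), and the exonuclease gene Isg20, at 25.4 and 24.7 against 123 and 143 CPM. Oas2 and Oas3, sensors of double-stranded RNA that activate RNase L, measured 80.9 and 87.2 against 272 and 300.0 CPM and 159 and 165 against 557 and 579 CPM. Ifit3 and Ifit3b, which share sequence so that their reads may be split between them, measured 396 and 395 against 1299 and 1357 CPM and 92.5 and 97.7 against 277 and 292 CPM. Isg15, whose promoter is shown above, did not pass the test and its groups overlapped, at 375 and 371 against 353 and 374 CPM (0.04 ± 0.06, adjusted p = 0.63).

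Interferon regulatory factors were lower with GM-CSF in 3 of the 4 cases fixed by name. Irf7, the interferon-induced amplifier of type I interferon, measured 234 and 232 CPM in GM-noTC-LPS and 729 and 804 CPM in M-noTC-LPS (-1.72 ± 0.08, adjusted p = 1.8e-14). Irf5, a factor linked to inflammatory cytokine transcription, measured 160.2 and 162 against 367 and 381 CPM (-1.22 ± 0.05), and Irf8 147 and 146 against 379 and 363 CPM (-1.35 ± 0.06). Irf4, a factor of dendritic and alternatively activated cells, was higher, at 84.1 and 81.8 against 2.77 and 2.64 CPM (4.93 ± 0.12, adjusted p = 2.0e-19).

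Few of the LPS receptor and proximal signalling genes differed by over 2-fold. Of 28 tested genes 1 was a DEG higher in GM-noTC-LPS and 3 in M-noTC-LPS, with a median of -0.20 on the log2 scale. The largest difference toward GM-noTC-LPS was 4.01 on that scale. By the adjusted p alone 8 lay toward GM-noTC-LPS and 15 toward M-noTC-LPS, against 4190 and 4076 of all 12514 tested genes. Tlr4 measured 103 and 115 CPM in GM-noTC-LPS and 172 and 173 CPM in M-noTC-LPS (-0.67 ± 0.07, adjusted p = 1.1e-08), and Cd14 1196 and 1242 against 1784 and 1894 CPM (-0.59 ± 0.06, adjusted p = 4.6e-09). The 3 genes higher in M-noTC-LPS were Cd180 and its partner Ly86, a TLR4-like surface complex, at 165 and 169 against 659 and 669 CPM and 42.5 and 42.4 against 118 and 122 CPM, and the kinase gene Ikbke. Of 25 NF-kB subunit and feedback genes, 3 were higher in GM-noTC-LPS and 4 in M-noTC-LPS. Zfp36, which encodes the mRNA decay factor tristetraprolin, measured 122 and 116 against 620.2 and 622 CPM, and Dusp2, a MAP kinase phosphatase, 4.31 and 3.28 against 36.9 CPM in both. The feedback nuclease gene Zc3h12a went the other way, at 324 and 349 against 128 and 124 CPM.

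All 12 MHC class II and antigen presentation genes were DEGs higher in GM-noTC-LPS, with a median log2 fold change of 3.26. Ciita, the master activator of the class II genes, measured 66.5 and 57.3 CPM in GM-noTC-LPS and 7.34 and 5.74 CPM in M-noTC-LPS (3.24 ± 0.11, adjusted p = 5.9e-17). H2-Aa measured 746 and 698 against 68.7 and 63.6 CPM, H2-Ab1 494 and 440.4 against 42.1 and 44.95 CPM, and H2-Eb1 368 and 338 against 29.7 and 27.7 CPM. H2-Aa and H2-Ab1 encode the alpha and beta chains of I-A, and H2-Eb1 only the beta chain of I-E. Their log2 fold changes lay between 3.42 and 3.62. The invariant chain gene Cd74 measured 2439 and 2261 against 238 and 245 CPM, and the peptide exchange chains H2-DMa, H2-DMb1 and H2-DMb2 were also higher. Class I presentation did not follow. Of 17 class I and immunoproteasome genes none was higher in GM-noTC-LPS and only Psmb10 was a DEG higher in M-noTC-LPS, with a list median of -0.68.

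Of 18 dendritic cell genes, 12 were higher in GM-noTC-LPS and 2 in M-noTC-LPS, with log2 fold changes from -1.35 to 7.11. Of 15 costimulatory and coinhibitory ligands, 5 were higher in GM-noTC-LPS, 2 in M-noTC-LPS and 8 were not called. The integrin gene Itgax, which encodes CD11c, measured 917 and 1014 CPM in GM-noTC-LPS and 58.8 and 54.1 CPM in M-noTC-LPS (4.10 ± 0.07). Zbtb46, a factor of conventional dendritic cells, measured 7.34 and 8.17 against 0.308 and 0.1996 CPM, and Clec9a, a receptor of cross-presenting cells, 10.5 and 10.7 against 0.513 and 0.449 CPM. For Xcr1, Batf3 and Cd209a, also set as dendritic cell markers, values are given only after subtraction of the lowest ratios. The chemokine receptor gene Xcr1 did not differ there (0.06 on the log2 scale, adjusted p = 0.85). Batf3 and Cd209a were higher in GM-noTC-LPS, at 1.97 (adjusted p = 3.8e-04) and 3.55 (adjusted p = 2.2e-05). The progenitor receptor Flt3 and the plasmacytoid marker Siglech were below the expression filter, at no more than 0.216 CPM in any of the 4 libraries. Cd80 was 10.01 times as high in GM-noTC-LPS, at 209 and 206 against 21.5 and 19.96 CPM, and Pdcd1lg2, or PD-L2, measured 24.1 and 20.1 against 0.205 and 0.0998 CPM. Cd40 and Cd83 were higher in M-noTC-LPS, at 267 and 254 against 583 and 628 CPM and 78.2 and 75.5 against 241 and 251 CPM.

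Genes of alveolar macrophages, the cells that depend on GM-CSF in the lung, were higher with GM-CSF in 13 of 21 tested cases and in none with M-CSF. The list median was 3.86 on the log2 scale, or 3.47 with Ear1 at its bound. Slc7a2, a cationic amino acid transporter, measured 5141 and 5098 CPM in GM-noTC-LPS and 445 and 477 CPM in M-noTC-LPS, the V-ATPase subunit gene Atp6v0d2 891 and 921 against 65.4 and 59.4 CPM, and the lectin gene Siglecf 52.7 and 54.6 against 2.41 and 3.49 CPM. Ear1 had no count in M-noTC-LPS and was at least 8.42-fold higher in GM-noTC-LPS, counted against 3 counts per library, and reads of the Ear genes may be split among near-identical copies. Pparg itself, the nuclear receptor that directs alveolar macrophage maturation, did not pass the test, at 10.04 and 9.44 against 9.29 and 9.08 CPM (0.08 ± 0.11, adjusted p = 0.51). Of 12 monocyte genes, 10 were higher in GM-noTC-LPS, among them Ly6c2 at 91.01 and 79.8 against 0.513 and 0.249 CPM and Vcan, which encodes versican, at 1557 and 1634 against 406 and 439.7 CPM.

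Genes linked to M-CSF macrophages moved in both directions. Of 34 tested, 16 were higher in M-noTC-LPS and 7 in GM-noTC-LPS, with a median log2 fold change of -1.01. Maf, a factor of resident macrophages, measured 37.3 and 38.4 CPM in GM-noTC-LPS and 304 and 343 CPM in M-noTC-LPS (-3.10 ± 0.09, adjusted p = 2.3e-18). Gas6, a bridging ligand for uptake of dying cells, measured 16.3 and 20.8 against 249.8 and 266 CPM, and Ms4a7 20.5 and 17.8 against 109.6 and 105 CPM. The complement genes C1qb and C1qc were 3.62 and 4.27 times as high in M-noTC-LPS, and Apoe 2.68 times. The mannose receptor gene Mrc1 and the efferocytosis receptor gene Mertk, both on this list, were instead higher with GM-CSF, at 539 and 532 against 109 and 88.5 CPM and 165 and 176 against 48.4 and 50.8 CPM.

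The receptors of the 2 growth factors differed in opposite directions. Csf1r, the M-CSF receptor, measured 729 and 800.3 CPM in GM-noTC-LPS and 2119 and 2184 CPM in M-noTC-LPS (-1.49 ± 0.05, adjusted p = 1.5e-16). Csf2rb, the beta chain of the GM-CSF receptor, measured 1764 and 1873 against 384 and 356 CPM (2.30 ± 0.06, adjusted p = 4.0e-19), though its reads may be split with the near-identical Csf2rb2. Csf2ra, the alpha chain, passed the test at under 2-fold, with 203 and 195 against 108 and 111 CPM. The STAT5 targets Socs2 and Cish, which damp cytokine receptors, were higher in GM-noTC-LPS, at 37.9 and 34.03 against 1.85 and 1.75 CPM and 202 and 211 against 63.1 and 64.2 CPM. So was Bhlhe40, a GM-CSF-induced factor, at 128 and 118 against 7.96 and 7.04 CPM. The G-CSF receptor gene Csf3r was 8.97 times as high in M-noTC-LPS.

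Arginine can be turned into nitric oxide by the enzyme that Nos2 encodes or into ornithine by arginases. Nos2 measured 355 and 427 CPM in GM-noTC-LPS and 1240.5 and 1285 CPM in M-noTC-LPS (-1.69 ± 0.07, adjusted p = 8.1e-15). Arg1 measured 207 and 165 against 0.7701 and 0.599 CPM (8.08 ± 0.27, adjusted p = 8.4e-17), and Arg2 37.4 and 40.4 against 8.83 and 9.73 CPM. Ass1, which rebuilds arginine from citrulline, was 4.69 times as high in GM-noTC-LPS. Acod1, the enzyme that makes itaconate, stood at 5096 and 5142 against 9315 and 9263 CPM, a difference of -0.86 ± 0.04 on the log2 scale (adjusted p = 1.0e-13) that stayed under 2-fold.

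The lipid mediator genes were higher in GM-noTC-LPS in 9 of 20 cases and in M-noTC-LPS in 3. Pla2g7, the platelet activating factor hydrolase, measured 543 and 537 against 101 and 117 CPM, and Ltc4s, which makes leukotriene C4, 26.5 and 22.9 against 2.16 and 3.99 CPM. Ptgs2, the inducible cyclooxygenase COX-2, was higher in M-noTC-LPS by less than 2-fold, at 1792 and 1971 against 3215 and 3754 CPM (-0.89 ± 0.07), and Hpgds, which makes prostaglandin D2, measured 9.38 and 8.39 against 107 and 109.9 CPM. None of 35 oxidative phosphorylation genes was a DEG in edgeR's test, with a median of 0.19 on the log2 scale. By the adjusted p alone 20 passed toward GM-noTC-LPS and 2 toward M-noTC-LPS, against 4190 and 4076 of all 12514 tested genes. Of 23 glycolysis and hypoxia genes 1 was higher in GM-noTC-LPS and 4 in M-noTC-LPS, and of 26 sterol and fatty acid synthesis genes 3 and 5, the 2 fatty acid desaturases Scd1 and Scd2 being higher with GM-CSF at 316 and 312 against 48.4 and 46.5 CPM and 279 and 267 against 80.1 and 57.5 CPM. Abca1, which exports cholesterol, measured 355 and 364 against 105 and 83.4 CPM.

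Matrix and protease genes were higher in GM-noTC-LPS in 17 of 29 cases and in M-noTC-LPS in 6. Fn1, fibronectin, measured 2330.4 and 2327 CPM in GM-noTC-LPS and 17.1 and 16.02 CPM in M-noTC-LPS (7.13 ± 0.13, adjusted p = 3.1e-21). Thbs1, thrombospondin, measured 964 and 943 against 25.9 and 24.4 CPM, the protease inhibitor gene Serpinb2 1463 and 1462 against 16.8 and 14.3 CPM, and the metalloproteinase gene Mmp19 321 and 350.0 against 9.81 and 10.9 CPM. The collagenase gene Mmp13 did not pass the test, at 923 and 909 against 866 and 922 CPM (0.03 ± 0.06, adjusted p = 0.6), and its groups overlapped. Mmp9, a gelatinase gene, was low, at 4.74 and 3.604 against 9.19 and 5.99 CPM (-0.86 ± 0.26, adjusted p = 0.0058). Its adjusted p became 0.073 without GM-noTC-LPS replicate 2 and 0.15 without M-noTC-LPS replicate 1. The syndecan gene Sdc4 was 3.66 times as high in M-noTC-LPS.

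Of 32 integrin and adhesion genes, 10 were higher in GM-noTC-LPS and 8 in M-noTC-LPS. The collagen-binding subunit Itga1 measured 144 and 147 against 4.47 and 4.49 CPM, and Itgb2, the shared beta chain of leukocyte integrins, 2333 and 2487 against 769.9 and 737 CPM. The tetraspanin gene Cd9 was also higher with GM-CSF, at 1262 and 1289 against 368 and 380.0 CPM (1.77 ± 0.05). On the other side were Itga4, at 659 and 664 against 1965 and 2126 CPM, Itga6, at 13.2 and 13.9 against 78.7 and 65.8 CPM, and the sialoadhesin gene Siglec1, at 43.8 and 52.3 against 291 and 288 CPM.

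Pattern recognition and uptake receptors were higher in GM-noTC-LPS in 14 of 33 cases and in M-noTC-LPS in 4. The fungal receptor genes Clec4n and Clec7a, which encode dectin-2 and dectin-1, measured 741 and 719 against 7.03 and 5.54 CPM and 966 and 1019 against 118 and 113 CPM. The oxidised lipoprotein receptor gene Olr1 measured 369 and 357 against 15.2 and 12.2 CPM and the phosphatidylserine-sensing kinase gene Axl 1249 and 1294 against 412 and 439 CPM. Clec12a was higher in M-noTC-LPS, at 34.96 and 33.99 against 437 and 444 CPM. Cd36, a receptor for fatty acids and oxidised lipids, differed by less than 2-fold, at 973 and 944 against 689 and 616 CPM. Of 7 tested genes of the Fc receptor list 2 were higher in GM-noTC-LPS and 3 in M-noTC-LPS. The inhibitory Fcgr2b and the low-affinity Fcgr3 were higher in GM-noTC-LPS (535 and 552 against 191 and 196 CPM and 517 and 546 against 224 and 196 CPM) and the high-affinity Fcgr1, Fcgr4 and the cytosolic receptor gene Trim21 in M-noTC-LPS (77.1 and 76.8 against 317 and 332 CPM, 87.3 and 89.6 against 176 and 179.9 CPM, and 223 and 228 against 547 and 587 CPM). Of 19 complement genes 6 were higher in M-noTC-LPS, among them C3 and the anaphylatoxin receptor genes C3ar1 and C5ar1, and Itgam alone was higher in GM-noTC-LPS.

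Cell death genes showed 6 DEGs of 29 in each direction. Pmaip1, the death inducer NOXA, measured 68.7 and 55.8 against 5.03 and 6.64 CPM and the inflammasome sensor gene Nlrc4 30.4 and 29.3 against 7.85 and 8.43 CPM, whereas Casp1, which cleaves pro-IL-1 beta, measured 135 and 131 against 367 and 384 CPM and the pore-forming Gsdmd 56.4 and 50.8 against 113 and 132 CPM. Bcl2a1a and Bcl2a1d were higher in GM-noTC-LPS, with reads that may be split among near-identical copies. Of 31 lysosomal genes 9 were higher in GM-noTC-LPS and none in M-noTC-LPS, including cathepsin D (Ctsd, 17188 and 18290.5 against 7160.2 and 6920.1 CPM) and prosaposin (Psap, 12588 and 12998 against 5022 and 4890.3 CPM). Among 21 iron and NRF2 target genes 4 were higher and 2 lower in GM-noTC-LPS, the cystine transporter gene Slc7a11 standing at 2244 and 2168 against 230.5 and 276 CPM. Of 20 AP-1 and immediate early genes 4 were higher in GM-noTC-LPS, with Fosl2 at 210.4 and 221 against 24.9 and 22.8 CPM, and 3 in M-noTC-LPS, with Fos at 1.75 and 2.42 against 17.04 and 13.6 CPM.

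Nearly all DEGs among DNA replication and mitosis genes were higher with M-CSF. Of 37 DNA replication genes 20 were higher in M-noTC-LPS and none in GM-noTC-LPS, and of 33 mitosis genes 25 and 1. The medians were -1.02 and -1.56 on the log2 scale. Mcm10, which opens replication forks, measured 11.9 and 12.3 against 70.3 and 73.5 CPM, Top2a, which untangles DNA, 84.4 and 79.3 against 316 and 311 CPM, and Cenpe, a kinetochore motor, 32.5 and 31.9 against 224 and 229 CPM. Ccnd1, cyclin D1, measured 10.7 and 10.8 CPM in GM-noTC-LPS and 52.6 and 43.8 CPM in M-noTC-LPS (-2.16 ± 0.11, adjusted p = 9.4e-14), whereas Ccnd2, cyclin D2, was higher in GM-noTC-LPS at 747 and 725 against 313 and 323 CPM. The single mitosis gene higher in GM-noTC-LPS was the checkpoint kinase Bub1b, at 48.1 and 50.1 against 20.9 and 19.7 CPM. Mki67, the common proliferation marker, did not pass the test, at 869 and 862 against 875 and 874 CPM (-0.01 ± 0.09, adjusted p = 0.89). Of 16 G1 cyclin and CDK inhibitor genes 8 were higher in M-noTC-LPS, a count that mixes cyclins with inhibitors. The inhibitor Cdkn1a stood at 592 and 585 against 1502 and 1562 CPM. After subtraction of the lowest ratios other inhibitor genes also lay toward M-noTC-LPS. They were Cdkn2a, Cdkn2c, Cdkn1c, Cdkn2d and Cdkn2b, at -3.80, -2.92, -2.51, -1.21 and -1.03 on the log2 scale. Cdkn1b did not differ (-0.07, adjusted p = 0.42).

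Markers of other bone marrow cells were mostly at low levels, with more of them in GM-noTC-LPS. Of 20 neutrophil genes 12 were tested and 10 were higher in GM-noTC-LPS, and the summed level scaled by library size was 786 and 814 CPM against 28.9 and 30.0 CPM. Mmp8 made up most of that sum, at 875 and 941 against 14.8 and 13.97 TMM-scaled CPM, while S100a8 stood at 9.85 and 7.25 against 1.08 and 0.0998 CPM, S100a9 at 12.03 and 9.12 against 0.462 and 0.0499 CPM, and Elane, Mpo, Ly6g and Retnlg were below the filter at 0.1797 CPM, scaled by library size, or less in every library. Of 15 mast cell and basophil genes 7 were tested and 6 were higher in GM-noTC-LPS. Cyp11a1 and Cpa3 had no count in M-noTC-LPS and were at least 17.5-fold and 6.43-fold higher in GM-noTC-LPS, at 2.700 and 2.600 and 0.995 and 0.958 CPM, while Fcer1a and Tpsab1 had no count in any of the 4 libraries. Below the filter, the B cell genes Cd79a, Ms4a1 and Pax5 reached at most 0.376 CPM, and Cd3e had no count. Of 4 tested B cell genes 2 were higher in GM-noTC-LPS, among them Cd22 at 30.9 and 36.8 against 4.26 and 2.99 CPM, and Ighm was higher in M-noTC-LPS at 10.1 and 9.17 against 35.4 and 33.3 CPM. Of 3 tested T and NK cell genes Il7r was higher in GM-noTC-LPS, at 349 and 371 against 86.7 and 78.6 CPM. The 2 tested eosinophil genes differed in opposite directions, Siglecf as given above and Ccr3 at 0.332 and 0.365 against 3.75 and 3.64 CPM. Of 5 tested erythroid and megakaryocyte genes 3 were higher in GM-noTC-LPS, with Itga2b at 7.296 and 6.89 against 0.7701 and 0.0998 CPM. Of 14 tested stromal genes 5 were higher in GM-noTC-LPS, with Postn at 14.4 and 18.2 against 0.154 and 0.349 CPM, and Cxcl12 was higher in M-noTC-LPS at 0.237 and 0.228 against 0.616 and 0.798 CPM. The part of such cells in the GM-noTC-LPS values was not tested, and without the members of the neutrophil, mast cell and basophil lists 1781 of the 1797 DEGs higher in GM-noTC-LPS were left.

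The growth factor contrast after LPS was next set against that at steady state on the same dish, in 4 other libraries. At steady state 2773 genes were DEGs (22.2%), 1622 (13%) higher in GM-noTC and 1151 (9.2%) in M-noTC. A difference between the 2 contrasts, that is, a growth factor by LPS interaction with an adjusted p below 0.05 and above 2-fold, was called for 1291 genes (10.3%). In 676 of them (5.4%) the contrast lay further toward GM after LPS than at steady state, and in 615 (4.91%) further toward M. The low steady state levels of LPS-induced genes can be of the size of the lowest ratios given above, which in the 4 steady state libraries were between 0.506% and 0.890%, so values after subtracting those shares from the 8 noTC libraries are given beside each interaction named here whose value they move by over 1.5 times or whose call they change.

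**Figure D4:**
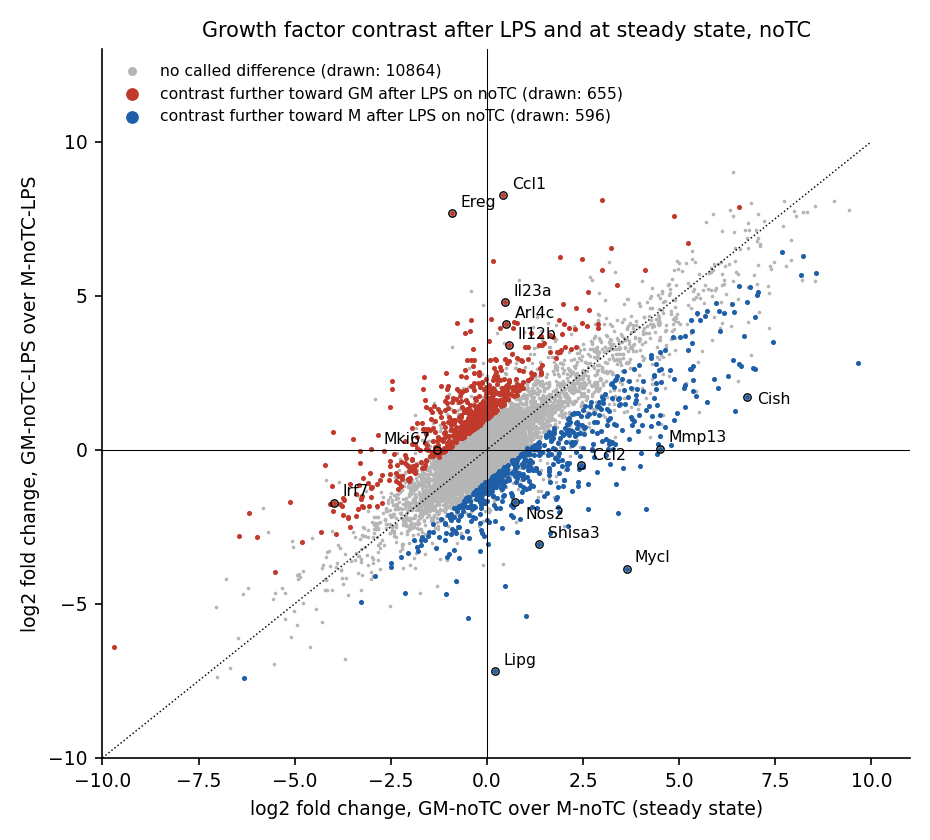
Log2 fold change of each gene, GM over M, after LPS (vertical) against that at steady state (horizontal), both on noTC dishes. Each point is 1 gene, red and blue points had a called difference between the 2 contrasts, the dotted diagonal marks equal contrasts, and 399 genes with no count in 1 of the 4 groups are not drawn. Ereg, Ccl1, Il23a and Il12b lie above the diagonal near 0 on the horizontal axis, and Mycl, Lipg, Cish and Mmp13 far below it.

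The plot of contrasts after LPS and at steady state separates genes by when the growth factor difference was measured. Il12b had a log2 fold change of 0.59 at steady state, and the difference between its contrasts was 2.80 ± 0.18 (SE, adjusted p = 5.8e-11), or 4.03 after subtraction. Il23a gave 4.32 ± 1.02 (adjusted p = 0.0022), or 5.27 after subtraction. Il6 gave 0.14 (adjusted p = 0.6), which was not called, and 1.75 after subtraction (adjusted p = 4.8e-04), which was. Il1b gave 1.20 ± 0.10 (adjusted p = 4.2e-09) and held at 1.12 after subtraction, while the 1.19 of Il1a fell to 0.30 (adjusted p = 0.19) and, without M-noTC replicate 1, to 0.95. Ereg and Ccl1 showed 8.6 ± 1.87 and 7.83 ± 2.47, or 10.71 and 10.69 after subtraction, with 3 or fewer counts in each steady state library, and both lost their adjusted p without M-noTC replicate 2 (0.99 each). Arl4c, a small GTPase gene, fell in M cells upon LPS challenge, from 67.1 and 67.7 CPM in M-noTC to 4.88 and 3.79 CPM in M-noTC-LPS, against 92.1 and 99.01 and 66.04 and 79.1 CPM in the GM groups. Bmf, a pro-apoptotic gene, fell in both, by more in M, from 16.7 and 16.5 to 0.462 and 0.1996 CPM in M and 29.03 and 24.8 to 5.496 and 6.296 CPM in GM. Zfp558 rose in GM cells from 1.47 and 1.55 to 29.7 and 24.2 CPM and measured 0.977 and 0.813 and 1.69 and 1.397 CPM in M.

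In the other direction, the contrast lay further toward M after LPS. Cish stood at 59.8 and 60.7 CPM in GM-noTC and 0.539 and 0.557 CPM in M-noTC and at 202 and 211 and 63.1 and 64.2 CPM after LPS, a difference between contrasts of -5.07 ± 0.16 (adjusted p = 5.5e-16), or -6.16 after subtraction. Mmp13 stood at 178 and 182 against 8.59 and 7.32 CPM at steady state and close to equal after LPS, with -4.48 ± 0.09. Mycl, a MYC family gene, reversed from 5.01 and 4.03 against 0.438 and 0.302 CPM to 6.21 and 5.66 against 86.5 and 85.9 CPM (-7.49 ± 0.22). Lipg rose from 0.607 and 0.6504 CPM in M-noTC to 263 and 250.4 CPM in M-noTC-LPS and measured 0.815 and 0.665 and 1.85 and 1.69 CPM in GM (-7.40 ± 0.50, or -11.22 after subtraction). Ccl2 reversed from 111 and 107 against 21.5 and 18.3 CPM to the lower GM level given above (-2.94 ± 0.12, adjusted p = 2.0e-14), and Ccl7 showed the same, with -3.42. Nos2 gave -2.42 ± 0.19. Trp53i11 and Shisa3 completed the 6 largest, with -3.92 and -4.43, the latter -5.09 after subtraction. Irf5 and Irf8 were near equal at steady state, at log2 fold changes of -0.16 and -0.13, and their differences of -1.06 and -1.21 fell under 2-fold, to -0.84 and -0.99, when libraries were scaled by size only.

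Interferon stimulated genes differed more at steady state than after LPS. At steady state 46 of 53 were higher in M-noTC, with a median of -1.71 on the log2 scale, against 20 of 53 and -0.92 after LPS. The interaction was called toward GM for 20 of the 53 and toward M for 3, and after subtraction for 29 and 2. Irf7 narrowed from 6.07 and 6.36 against 90.9 and 103 CPM at steady state to 234 and 232 against 729 and 804 CPM, a difference of 2.25 ± 0.14 (adjusted p = 2.7e-11). Cxcl10 depended on the subtraction, with a difference of -0.87 that was not called and one of 1.45 after subtraction (adjusted p = 4.6e-06). Among the 25 chemokines the interaction was called toward GM for 1 and toward M for 11, or 3 and 11 after subtraction. None of the 12 MHC class II genes had a called interaction, where 10.3% of all tested genes had one, and their median was 3.37 at steady state. Mki67 was lower in GM-noTC at steady state, at 316 and 300.2 against 763 and 741 CPM, with an interaction of 1.27 ± 0.13 (adjusted p = 3.6e-08), and Ccnd1 gave 1.24 ± 0.15.

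The same contrast was last set against that on TC dishes after LPS, in GM-TC-LPS and M-TC-LPS. There 3124 genes (25%) were DEGs, 1866 (14.9%) higher with GM-CSF and 1258 (10.1%) with M-CSF. A growth factor by dish interaction was called for 178 genes (1.42%), 96 (0.767%) with a contrast further toward GM on noTC and 82 (0.655%) further toward M.

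**Figure D5:**
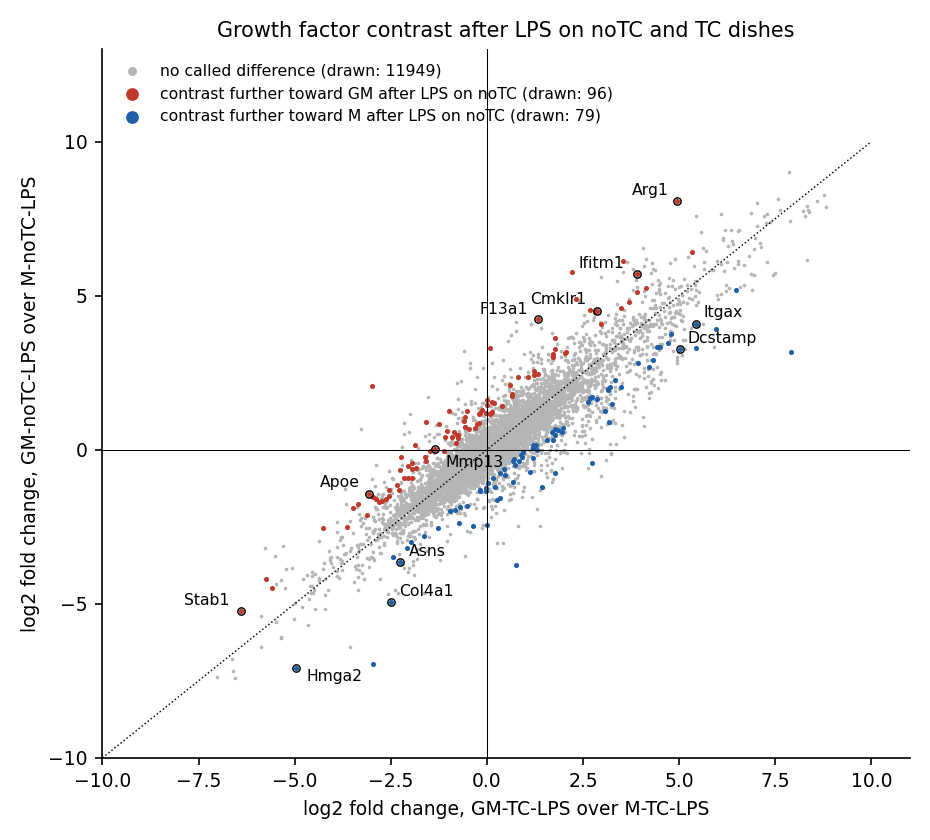
Log2 fold change of each gene, GM over M after LPS, on noTC (vertical) against TC dishes (horizontal). Each point is 1 gene, red and blue points had a called difference between the dishes, the dotted diagonal marks equal contrasts, and 390 genes with no count in 1 of the 4 groups are not drawn. Most genes lie along the diagonal, with Arg1 and F13a1 above it and Dcstamp, Hmga2 and Col4a1 below.

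The plot of contrasts on the 2 dishes shows fewer departures than the one against steady state. Arg1 had the largest difference toward GM on noTC among the genes named by the rule. It measured 19.6 and 37.98 CPM in GM-TC-LPS and 1.03 and 0.814 CPM in M-TC-LPS, against 207 and 165 and 0.7701 and 0.599 CPM on noTC, a difference between contrasts of 3.13 ± 0.78 (adjusted p = 0.011). It was lost after subtraction (3.66, adjusted p = 0.067) and without M-TC-LPS replicate 1 (2.93, adjusted p = 0.15). F13a1, coagulation factor XIII, measured 6.83 and 10.2 against 3.69 and 3.14 CPM on TC and 29.5 and 29.8 against 1.49 and 1.597 CPM on noTC (2.94 ± 0.29, adjusted p = 5.6e-07). The apolipoprotein genes Apoc2 and Apoe gave 2.08 ± 0.18 and 1.63 ± 0.09, and Cmklr1, the chemerin receptor gene, 1.66 ± 0.28. Ifitm1 gave 1.79, which missed the adjusted threshold without M-TC-LPS replicate 1 (adjusted p = 0.055).

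Toward M on noTC were Itgax, Asns, Cdkn1c, Dcstamp, Hmga2 and Col4a1. Dcstamp, which is needed for macrophage fusion, measured 41.6 and 41.3 against 1.23 and 1.34 CPM on TC and 46.2 and 49.4 against 5.44 and 4.44 CPM on noTC (-1.74 ± 0.23, adjusted p = 2.0e-05). Itgax measured 993 and 974 against 21.4 and 24.5 CPM on TC, with -1.33 ± 0.10. Asns, asparagine synthetase, measured 8.58 and 8.36 against 39.8 and 41.2 CPM on TC and 6.73 and 6.71 against 86.6 and 82.7 CPM on noTC (-1.40 ± 0.13). The CDK inhibitor gene Cdkn1c and the chromatin protein gene Hmga2 gave -1.67 and -2.12, and Col4a1 -2.46 ± 0.39. The differences of Il12b and Il1b passed the adjusted test at under 2-fold, at 0.69 ± 0.11 and 0.72 ± 0.08. Over all 12514 tested genes 1324 passed the adjusted test for this difference. Of the 12 MHC class II genes none reached 2-fold, but 5 passed the adjusted test, each with a contrast further toward GM on noTC. They were H2-Ab1 at 0.98 (adjusted p = 1.2e-06), H2-Eb1 at 0.97, H2-Aa at 0.79, Cd74 at 0.74 and Ciita at 0.59 (adjusted p = 0.026). The list median was 2.64 on TC against 3.26 on noTC. None of the 53 interferon stimulated genes had a called difference, where 1.42% of all tested genes had one, and 3 passed the adjusted test.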

How the data were processed

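The authors enriched mRNA with oligo (dT), sequenced it on an Illumina NovaSeq instrument, aligned the reads with HISAT2 and estimated expression with RSEM. The submitters' processing notes also name fastp 0.18.0, Bowtie2 2.2.8 and StringTie 1.3.1. Genome build and annotation are not given in the sources used here. The deposited values are expected counts per gene for 22287 genes, without normalization, and they were rounded to whole counts.

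filterByExpr of edgeR kept 12514 of 16756 genes that had any count, and library scaling used TMM. edgeR's quasi-likelihood test (edgeR 4.0.16, R 4.3.3) was fitted over 8 groups of 16 libraries without a replicate block, and p-values were adjusted over all tested genes by Benjamini and Hochberg. The study's fold threshold of 2 was kept. The biological coefficient of variation was 4.75%. Alternatives were DESeq2 1.42.0, other scaling, no filter, other thresholds, a replicate block, leaving out replicates, and subtracting from each library its lowest ratio to the mean of the others, taken over genes at 100 CPM or more. Counting intervals are exact binomial ones at 95% and, like the floor of 3 counts, cover counting error only. Counts were simulated for this comparison with 12514 genes, of which 200 were changed by 1.5-, 2-, 3- or 4-fold, 50 genes each. All other genes were set equal between the groups, unlike the data. Of these, 190 changed and 11 unchanged genes passed the adjusted p, and 125 and 1 also the fold threshold. The 125 depends on the folds chosen, as many lay at or below the threshold. All 50 genes changed by 4-fold passed both.

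Genes and lists were chosen with earlier results of these data known. Named are the 12 DEGs in each direction with the largest fold change at 20 CPM or more without overlap or a provisional gene name, up to 8 called members of a list with the largest fold change at 1 CPM or more, genes fixed by name, some of which are not reported here, and for each interaction the 6 largest in each direction. Other list members were named after their values were seen.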

Additional observations from a re-analysis of the deposited data

Results flagged for a closer look

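These results stand out because a test of the difference itself found the growth factor contrast unequal between conditions. Between LPS and steady state on noTC dishes, 1291 genes passed. Toward GM after LPS, the log2 differences were 8.6 for Ereg, 7.83 for Ccl1, 4.32 for Il23a, 3.56 for Arl4c, 3.45 for Bmf, 3.35 for Zfp558, 2.80 for Il12b, 2.25 for Irf7, 1.27 for Mki67, 1.24 for Ccnd1, 1.20 for Il1b and 1.19 for Il1a. Toward M after LPS, they were -7.49 for Mycl, -7.40 for Lipg, -5.07 for Cish, -4.48 for Mmp13, -4.43 for Shisa3, -3.92 for Trp53i11, -2.94 for Ccl2, -2.42 for Nos2, -1.25 for Ccl17, -1.22 for Csf2rb, -1.21 for Irf8 and -1.06 for Irf5. The limits given above apply to these values. After subtraction Il1a fell to 0.30 and was no longer called, and Ccl17 moved to -1.94. Ereg and Ccl1 rest on few steady state counts, and Irf5 and Irf8 depend on the scaling.

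Between noTC and TC dishes after LPS, 178 genes passed. Toward GM on noTC, the log2 differences were 3.13 for Arg1, 2.94 for F13a1, 2.08 for Apoc2, 1.79 for Ifitm1, 1.66 for Cmklr1 and 1.63 for Apoe. Toward M on noTC, they were -2.46 for Col4a1, -2.12 for Hmga2, -1.74 for Dcstamp, -1.67 for Cdkn1c, -1.40 for Asns and -1.33 for Itgax. The call of Arg1 was lost after subtraction, and the limits given above for Arg1 and Ifitm1 without M-TC-LPS replicate 1 apply. Groups of 2 libraries were too small to look for a single library far from the others.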

How the results depend on the processing

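Signs under the alternatives were compared for the genes fixed by name and for the largest DEGs and interactions named by rule. Among these, no called fold change or interaction changed sign. Other DEGs and called interactions were not compared. The LPS interaction of Cxcl10, under 2-fold as reported (-0.87), changed sign after the subtraction (1.45). The counts of 1797 and 1266 DEGs stayed within 1.5 times under DESeq2's size factors, scaling by library size, no filter, DESeq2 on 16 or 4 libraries, edgeR on 4 libraries, the subtraction and the unadjusted p. Other thresholds moved counts as they were built to. With a fold change above 1.5 there were 2273 DEGs higher in M-noTC-LPS, 2577 LPS interactions and 498 dish interactions. Without a fold threshold there were 4190, 4076, 4528 and 1324. With an unadjusted p there were 366 dish interactions in place of 178. Leaving out 1 replicate gave 1712 to 1725 DEGs higher in GM-noTC-LPS, 1233 to 1254 in M-noTC-LPS, 1215 to 1260 LPS interactions and 135 to 184 dish interactions, each with the lone library assumed to vary like the other groups.

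Same-numbered libraries of the 2 groups correlated at -0.057 in their deviations, across genes, and between -0.064 and 0.086 over all pairs of groups, so the numbers were not taken as pairing. With a replicate block 1784 and 1263 DEGs and 1279 and 179 interactions were called. Without the neutrophil, mast cell and basophil lists, a choice made after seeing the data, 1781 remained. Depth limits genes below about 0.15 CPM, where a library held 3 counts or fewer.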
